A study of Mus musculus with 6 samples.

Results

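Interferon-stimulated genes are the genes that cells switch on when interferon binds its receptors. They were followed here as a list of 44 gene symbols, taken by name from the table of counts. All 44 were among the 23420 genes of that table, and all 44 were among the 13682 genes that could be tested. The libraries came from splenic B lymphocytes of 3 Ahr+/+ and 3 Ahr-/- mice, 1 library per mouse, with C57Bl/6J given as the background strain for both genotypes. The Ahr-/- mice lack AhR (the aryl hydrocarbon receptor) in the whole body, through the germline allele Ahr tm1Bra. AhR is a transcription factor that small aromatic ligands activate. B cells were taken from the spleen with a magnetic isolation kit. B cells of both genotypes were treated alike. For 8 h they were stimulated through the B-cell receptor with anti-IgM (10 µg/ml) in medium that also held IL-4 (20 ng/ml). FICZ, a high-affinity AhR ligand, was added at 250 nM for the last 4 h, and no interferon was added. The comparison asks what the loss of AhR changes in B cells activated in the presence of its ligand.

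Type I interferons bind the receptor chains Ifnar1 and Ifnar2, whose Janus kinases Jak1 and Tyk2 activate Stat2 and other transcription factors. A complex that holds Stat2 and Irf9 then binds the interferon-stimulated response element (ISRE) in promoters. Interferon-γ acts through Jak1 and Jak2, and the GAS element is the promoter site of its response. The induced proteins sense, cut, trap or modify viral nucleic acids and proteins, and B cells make many of them at a low level without infection.

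The 44 genes hardly separated the genotypes. In Ahr-/- B cells 2 of 44 were higher at an adjusted p under 0.05 and none was lower, whereas 17.9% of all tested genes passed that threshold, 9.79% of them as higher and 8.13% as lower. The genes that rose were Gbp3, a guanylate-binding GTPase, and Samhd1, which breaks down deoxynucleotides. At an unadjusted p under 0.05 there were 3, the third being Irgm2, against 29.4% of all tested genes. DESeq2, run as another tool, called Gbp3 alone, against 16.0% of all tested genes. The median log2 fold change (Ahr-/- minus Ahr+/+) of the 44 genes was -0.0463, against 0.00217 over all tested genes, with 17 genes above 0 and 27 below. For 39 of the 44 genes the same mice were lowest in each genotype and highest among Ahr-/- mice, and the spread between mice of the same genotype was mostly large.

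The promoters of these genes are shown first, since the ISRE is what most of them are known to share. RefSeq promoters of the mouse build GRCm38 (250 bases before to 50 after the start) were matched by symbol for 34 of the 44 genes. For 27 of these the first bases after the start were found in an annotated transcript, and the start is less certain for the others. The ISRE core was searched as GAAA, any 2 bases, then GAAA, on both strands. It was found in 20 of the 34 genes (58.8%), against 3.99% of the 27025 genes with a promoter of this length. The GAS letters TTCNNNGAA were found in 10 (29.4%, against 9.55%). The core letters of the AhR site, GCGTG, which may overlap the other motifs, were also found in 10 (29.4%), against 35.2% of all genes. Such a match is a description of the sequence and not a measured binding site.

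The 4 genes with the smallest p-values among those that hold the ISRE core were Gbp3, Irgm2, Ddx58 and Bst2. The match in Ddx58 lies just after the start, so it is given below as a short window, and the upstream stretches of the other 3 are printed here, with capitals for the ISRE core on either strand. Samhd1 passed the test and holds no ISRE core, and its capitals mark the GAS letters. The stretches run 5′ to 3′ on the gene's strand and leave out bases that the GENCODE annotation places in an exon of the gene. They are chr3:142559794-142560025 (plus strand) for Gbp3, chr11:58214727-58214976 (plus) for Irgm2, chr8:71537473-71537722 (minus) for Bst2 and chr2:157135266-157135346 (minus) for Samhd1.
Gbp3: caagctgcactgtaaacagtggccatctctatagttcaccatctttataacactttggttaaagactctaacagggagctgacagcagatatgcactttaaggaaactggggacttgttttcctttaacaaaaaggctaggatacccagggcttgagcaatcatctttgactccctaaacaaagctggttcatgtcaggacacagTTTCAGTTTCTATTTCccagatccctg
Irgm2: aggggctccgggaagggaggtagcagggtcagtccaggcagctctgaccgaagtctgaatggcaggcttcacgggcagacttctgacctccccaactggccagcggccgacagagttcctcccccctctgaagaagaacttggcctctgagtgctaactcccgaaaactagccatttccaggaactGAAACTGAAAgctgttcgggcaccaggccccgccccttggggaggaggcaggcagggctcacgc
Bst2: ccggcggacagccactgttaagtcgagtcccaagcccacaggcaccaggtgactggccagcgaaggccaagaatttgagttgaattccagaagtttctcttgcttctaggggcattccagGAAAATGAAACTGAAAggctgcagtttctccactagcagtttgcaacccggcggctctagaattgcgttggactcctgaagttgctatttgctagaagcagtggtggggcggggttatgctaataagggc
Samhd1: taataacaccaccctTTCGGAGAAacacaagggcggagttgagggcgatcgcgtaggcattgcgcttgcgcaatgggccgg

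Gbp3 and Bst2 each held 2 overlapping matches to the ISRE core, starting 45 and 39 bases before the start in Gbp3 (minus strand) and 130 and 124 bases before it in Bst2. Irgm2 held 1, starting 64 bases before the start. Shorter windows of 30 bases show the core in Ddx58 and in 3 genes chosen after their values were seen, which are Isg15 as the namesake of the group, Ifit3 as the gene with the widest range, and Igtp as the neighbour of Irgm2. They lie at chr4:40239804-40239833 (minus strand), chr4:156200871-156200900 (minus), chr19:34583363-34583392 (plus) and chr11:58199512-58199541 (plus).
Ddx58: cctgaggcagTTTCGATTTCctatggccag
Isg15: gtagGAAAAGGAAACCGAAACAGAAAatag
Ifit3: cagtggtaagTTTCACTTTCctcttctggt
Igtp: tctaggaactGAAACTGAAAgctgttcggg

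Isg15 held 3 overlapping matches, and Ifit3 a second one outside this window. The window of Igtp and the like window of Irgm2 (the core with 10 bases on each side) were identical at 29 of 30 bases. The highest Ahr-/- library was a median of 1.99 times the lowest in the 20 genes with it and 1.89 times in the other genes with a matched promoter, with ranges of 1.27 to 7.09 and 1.18 to 3.83 that overlap widely. This difference was not tested. The median log2 fold change was -0.09 with it and -0.01 without it.

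Gbp3 lies on chromosome 3 of GRCm38 from 142560026 to 142573209, between its relatives Gbp7 and Gbp2. It had 60.2, 113 and 101 normalised counts (read counts scaled to a common library size) in Ahr+/+ replicates 1 to 3. In the Ahr-/- replicates it had 163, 185 and 146. All 3 Ahr-/- mice were above all 3 Ahr+/+ mice, and it was the only 1 of the 44 genes whose genotypes did not overlap, against 33.5% of all tested genes. The means were 91.3 ± 27.6 and 165 ± 19.5 (SD, n = 3 mice each), which is 0.86 on the log2 scale (standard error 0.196, 95% interval 0.43 to 1.29) with an adjusted p of 0.0085 by edgeR's quasi-likelihood test. An exact two-sided permutation test of the normalised counts gave p = 0.1, the smallest that 3 mice against 3 allow. Gbp3 stayed past the threshold in every fit that left out 1 library, with log2 fold changes from 0.63 to 1.05. Its near relatives did not pass the test, and their difference from Gbp3 was not tested. Gbp2 had 69.9, 136 and 139 against 142, 191 and 98.5 normalised counts (log2 fold change 0.35, 95% interval -0.23 to 0.93, adjusted p = 0.43), and Gbp7 had 114, 205 and 186 against 170, 186 and 72.0 (-0.25, adjusted p = 0.64, both from edgeR). Guanylate-binding proteins are similar in sequence, so reads could be split between them.

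Samhd1, on chromosome 2 from 157097533 to 157135265, had 4142, 4883 and 4573 normalised counts in Ahr+/+ mice and 6325, 5640 and 4872 in Ahr-/- mice. The lowest Ahr-/- mouse lay just under the highest Ahr+/+ mouse. The difference was 0.30 on the log2 scale (standard error 0.0817, 95% interval 0.13 to 0.48, adjusted p = 0.021 from edgeR), and the exact permutation test gave p = 0.2. Samhd1 no longer passed without Ahr+/+ replicate 1, Ahr+/+ replicate 3, Ahr-/- replicate 1 or Ahr-/- replicate 2, nor by DESeq2, with log2 fold changes of 0.22 to 0.39 over the fits that left out 1 library.

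**Figure D1:**
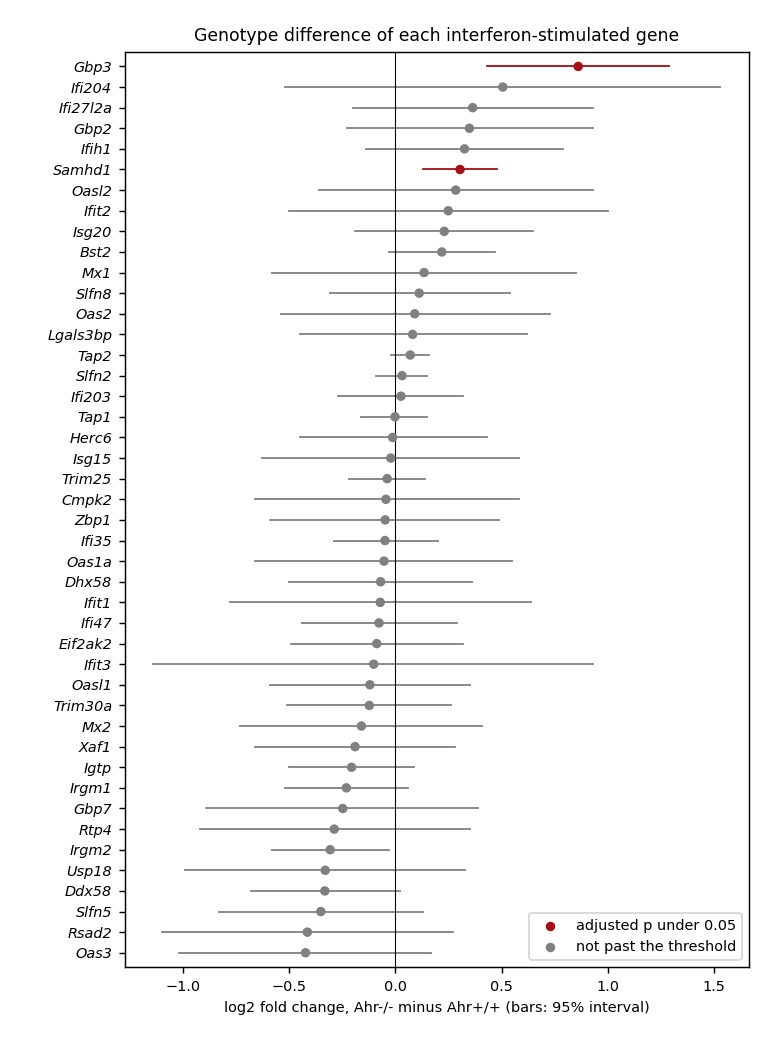
Log2 fold change (Ahr-/- minus Ahr+/+) of each of the 44 genes on the horizontal axis, with its 95% interval from edgeR as a bar. Gbp3 and Samhd1, in red, have an adjusted p under 0.05, and the intervals of 30 of the 42 others reach beyond 0.5 in either direction.

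The other 42 genes did not pass the test, which does not show that they were alike in the genotypes. Their 95% intervals reached beyond a log2 change of 0.5 in 30 genes and stayed within it in 12. The widest interval was that of Ifit3, from -1.14 to 0.93, and the narrowest that of Tap2, from -0.02 to 0.16. Within each genotype, however, the mice differed in one pattern across nearly the whole group. Ahr+/+ replicate 1 was the lowest Ahr+/+ mouse for 42 of the 44 genes. Ahr-/- replicate 3 was the lowest Ahr-/- mouse for 43 of them and Ahr-/- replicate 1 the highest for 40. All 3 held together for 39 genes (88.6%), against 7.72% of all tested genes. The 5 exceptions were Gbp2, Gbp3, Gbp7, Tap2 and Slfn2. Ahr-/- replicate 1 was above every Ahr+/+ mouse for 36 genes, against 35.2% of all tested genes, and Ahr-/- replicate 3 below every Ahr+/+ mouse for 34, against 30.8%. Both held for 27 genes, against 4.33% of all tested genes.

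**Figure D2:**
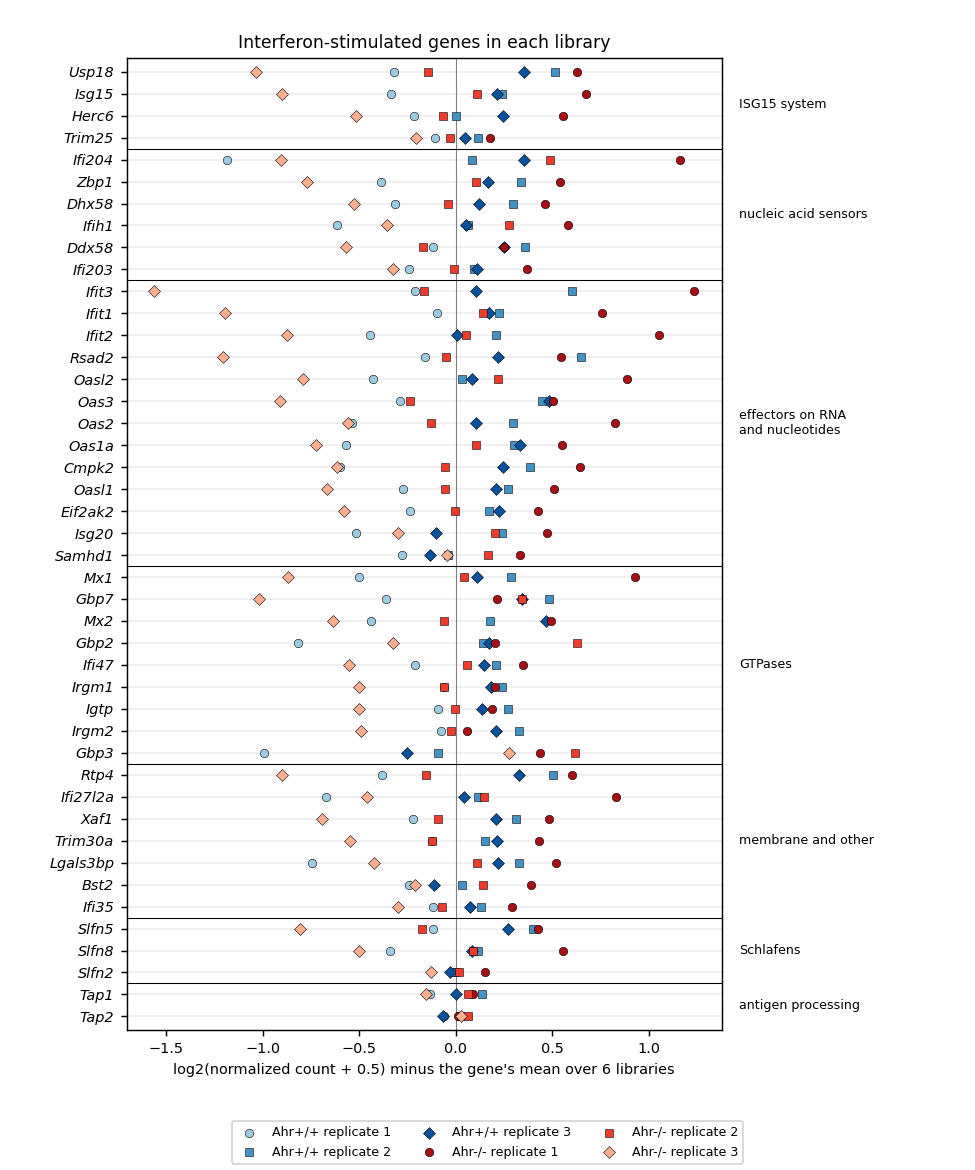
Each of the 44 genes in each of the 6 libraries, grouped by what the proteins do, as the log2 of the normalised count plus 0.5 minus the gene's mean over the libraries (horizontal axis). Dark red circles (Ahr-/- replicate 1) lie at the right for most genes, pale red diamonds (Ahr-/- replicate 3) and pale blue circles (Ahr+/+ replicate 1) at the left.

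The size of this spread was measured as the SD within genotypes of the log2 normalised count. Its median was 0.463 over the 44 genes and 0.0831 over all tested genes, or 0.0637 over the 10313 tested genes with a mean of at least 50 normalised counts. Of the 43 interferon-stimulated genes at that level, 38 lay above the 90th percentile of those genes. Counting alone would give a median SD of 0.0628, and all 44 genes exceeded their own counting SD, as did 72.3% of all tested genes. Tap2 was an exception to the wide spread, with an SD of 0.0399. The SD was larger than the difference between the genotype means for 40 of the 44 genes (90.9%, against 44.7% of all tested genes). The genotypes accounted for a median of 3.79% of the variance between the libraries, against 33.6% over all tested genes. Whether this spread arose in the mice, in the isolation or in culture was not tested.

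**Figure D3:**
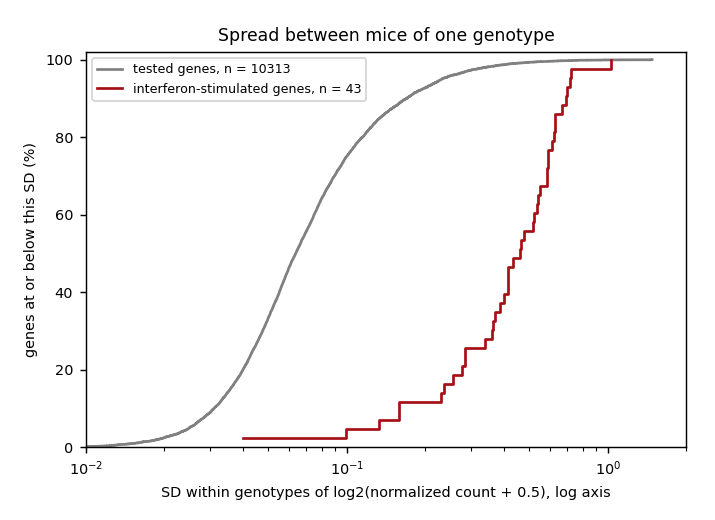
Cumulative share of genes (vertical axis, %) at or below a given SD within genotypes of the log2 normalised count (horizontal axis, log scale), for genes with a mean of at least 50 normalised counts. The 43 interferon-stimulated genes lie to the right of the 10313 tested genes.

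Ubiquitin-like Isg15 and its partners formed the first group by function. Isg15 is linked to other proteins, Herc6 is the mouse ligase of that reaction, Usp18 removes Isg15 and also dampens the type I receptor, and Trim25 is a ubiquitin ligase that activates RIG-I. Isg15, on chromosome 4, had 320, 477 and 469 normalised counts in Ahr+/+ mice and 644, 436 and 216 in Ahr-/- mice. The Ahr-/- mice lay above, between and below the Ahr+/+ mice, and the log2 fold change was -0.02 (95% interval -0.63 to 0.58). Usp18 had 276, 492 and 439 against 532, 311 and 168, the same order of mice. Herc6 ran from 341 to 469 and from 277 to 582. Trim25, which drew the most counts, varied least, with 4118, 4813 and 4596 against 5017, 4356 and 3846. None of the 4 passed the test.

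The sensors were Ddx58 (RIG-I), Ifih1 (MDA5) and Dhx58 (LGP2), which bind viral RNA in the cytosol, Zbp1, which binds Z-form nucleic acid, and Ifi203 and Ifi204 of the family that includes DNA sensors. Ifi203, the highest by count, had 2092, 2643 and 2663 normalised counts in Ahr+/+ mice and 3192, 2455 and 1974 in Ahr-/- mice. Ddx58 had 1259, 1747 and 1625 against 1620, 1213 and 919 (log2 fold change -0.33, adjusted p = 0.19 from edgeR). Here 2 of the Ahr-/- mice lay below all Ahr+/+ mice. Ifih1 leaned the other way, with 195, 313 and 310 against 448, 362 and 234 (0.33, adjusted p = 0.35 from edgeR). Ifi204 was the least abundant gene of the group, with 9.71, 24.1 and 29.2 against 51.5, 32.0 and 11.9, a 4.34-fold range within Ahr-/- mice. Dhx58 and Zbp1 ranged 1.99-fold and 2.48-fold within Ahr-/- mice. None of the 6 passed the test. Ifi203 overlaps Mndal on the same strand, and the Ifi200 family is similar in sequence, so their counts are uncertain.

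The next group acts on RNA and nucleotides. Ifit1, Ifit2 and Ifit3 bind viral RNA. Ifit3 had 61.2, 108 and 76.4 normalised counts in Ahr+/+ mice and 168, 63.3 and 23.7 in Ahr-/- mice, a 7.09-fold range within Ahr-/- mice that was the largest of the 44. Ifit1 had 139, 174 and 168 against 252, 164 and 64.7, and Ifit2 had 146, 229 and 199 against 412, 206 and 108. The 3 neighbours on chromosome 19 thus shared the order of the Ahr-/- mice, as did all 13 genes of this group. Oas1a, Oas2 and Oas3 make the second messenger that activates RNase L, and Oasl1 and Oasl2 are their relatives. Within Ahr-/- mice these 5 ranged from 2.26-fold (Oasl1) to 3.21-fold (Oasl2). Eif2ak2 (PKR), which stops translation when it binds double-stranded RNA, had 1436, 1909 and 1980 against 2281, 1689 and 1135. Isg20, an exonuclease, ranged 1.71-fold within Ahr-/- mice. Rsad2 (viperin) and its neighbour Cmpk2, which act on nucleotides, ranged 3.38-fold and 2.40-fold. Of the 13 effectors Samhd1 alone passed. Rsad2 and Cmpk2 are the members closest to Ahr, 9.04 and 9.02 Mb away on chromosome 12. Without them the median log2 fold change of all the other interferon-stimulated genes was -0.043.

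Mx1 and Mx2 belong to a family of dynamin-like GTPases that trap viral particles. Mx2 is annotated as a polymorphic pseudogene, and whether either gene makes a working protein in these mice was not tested. Irgm1, Irgm2, Igtp and Ifi47 are immunity-related GTPases that act on vacuoles with intracellular pathogens. Irgm1 had 2796, 3447 and 3306 normalised counts in Ahr+/+ mice and 3357, 2797 and 2058 in Ahr-/- mice. Irgm2 had 816, 1081 and 993 against 896, 845 and 613, a log2 fold change of -0.31 (95% interval -0.58 to -0.03, adjusted p = 0.13 from edgeR). Igtp had 1161, 1495 and 1359 against 1411, 1235 and 876. Ifi47 ranged from 2297 to 3064 and from 1812 to 3381. In these 4 genes Ahr-/- replicate 3 lay below every Ahr+/+ mouse. Igtp and Irgm2 overlap on the same strand of chromosome 11, as do Ifi47 and Olfr56, so reads could have been assigned to either. Mx1 ranged 3.48-fold and Mx2 2.19-fold within Ahr-/- mice. Of the 9 GTPases Gbp3 alone passed.

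Tap1 and Tap2 form the transporter that carries peptides to MHC class I, and both were among the steadiest of the 44 genes. Tap1 had 6634, 7977 and 7266 normalised counts against 7737, 7594 and 6537. Tap2 had 4780, 5066 and 4772 against 5024, 5218 and 5093, and its 1.04-fold range within Ahr-/- mice was the smallest of the 44. The log2 fold changes were -0.002 and 0.07, and neither passed the test. Tap1 overlaps Psmb9 on the opposite strand, and Tap2 overlaps Gm20496 and Gm15821 there, so their counts are uncertain if strand was not used in counting.

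Membrane and other proteins were a mixed group of 7. Bst2 (tetherin) holds budding virus at the cell surface, and it had 1930, 2338 and 2113 normalised counts against 2998, 2520 and 1975 (log2 fold change 0.22, adjusted p = 0.23 from edgeR). Trim30a, a ubiquitin ligase family member, had 6445, 7819 and 8148 against 9469, 6444 and 4814. Ifi27l2a, a small mitochondrial protein, had 1047, 1807 and 1722 against 2974, 1850 and 1213. Rtp4, a receptor transporter protein, ranged 2.84-fold within Ahr-/- mice, and Xaf1, Lgals3bp (a secreted galectin-binding protein) and Ifi35 ranged less. Of the Schlafens, Slfn2, a protein known for keeping lymphocytes quiescent, had 14151, 14190 and 13925 against 15817, 14378 and 13042. Slfn5 had 657, 943 and 860 against 959, 632 and 408, and Slfn8 had 1151, 1576 and 1544 against 2137, 1548 and 1027. None of these 10 genes passed the test. All 10 had Ahr-/- replicate 1 highest and Ahr-/- replicate 3 lowest within the Ahr-/- mice.

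Per kilobase of exon the members spanned a wide range of levels. Slfn2 was highest, at a mean of 223 CPM (counts scaled to a common library total) per kilobase, followed by Ifi27l2a at 99.4, Bst2 at 66.6 and Ifi35 at 58.1. Ifi204 was lowest at 0.193, and the 3 Ifit genes lay between 1.24 and 1.57. The spread between mice of Bst2 and Ifi35, neighbours in that order, was 0.235 and 0.229 on the log2 scale. Both were measured in the same libraries, and their difference was not tested.

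The genotype comparison turned on which mouse was in it. With Ahr-/- replicate 1 left out, 6 of the 44 genes were called, against 15.5% of all genes tested in that fit. Of these, Oas3, Slfn5, Ddx58, Trim30a and Irgm1 were lower in Ahr-/- cells, with log2 fold changes of -0.77, -0.64, -0.53, -0.41 and -0.39, and Gbp3 was higher. With Ahr-/- replicate 3 left out, 6 were called, against 19.3%, and all were higher. They were Gbp3, Ifi27l2a (0.63), Oasl2 (0.62), Ifih1 (0.55), Samhd1 (0.39) and Bst2 (0.36). The median log2 fold change of the 44 genes was -0.309 in the first case and 0.158 in the second. Without Ahr+/+ replicate 1 it was -0.195, and Irgm2 was called lower (-0.42) while Samhd1 was not called. Without Ahr+/+ replicate 3 or without Ahr-/- replicate 2, Gbp3 was the only gene called.

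**Figure D4:**
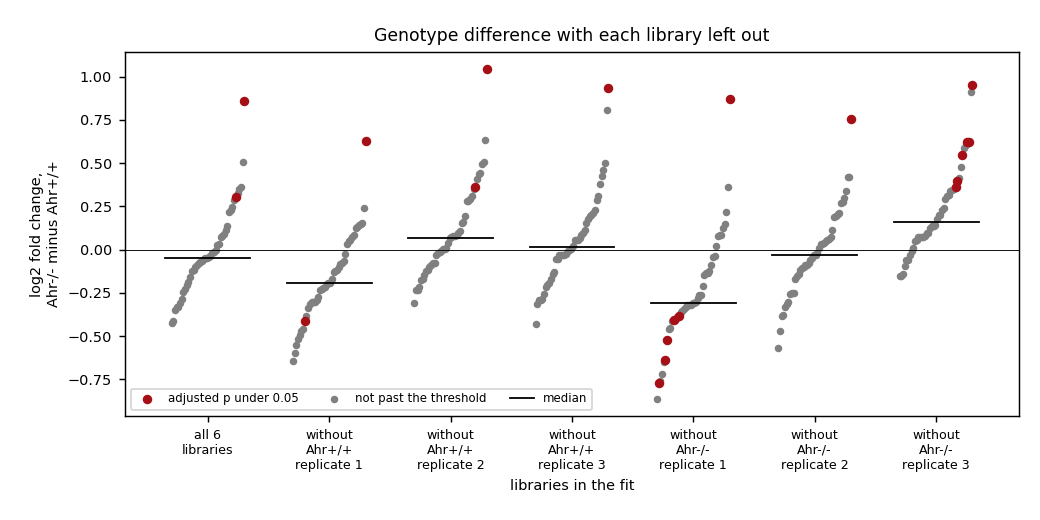
Log2 fold changes (vertical axis) of the 44 genes with all libraries and with each library left out in turn, sorted within each fit, with black lines at the medians. Red points have an adjusted p under 0.05: without Ahr-/- replicate 1, 5 of the 6 lie below 0, and without Ahr-/- replicate 3 all 6 lie above 0.

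The receptors and Janus kinases upstream of these genes differed between the genotypes with little spread between mice. Of 9 receptor and Janus kinase genes, 5 were higher and 2 were lower in the Ahr-/- libraries, against 17.9% of all tested genes called in either direction. The genotypes did not overlap for those 7, against 33.5% of all tested genes. Jak2, the kinase of the interferon-γ receptor, fell from 11584 ± 896 to 4204 ± 78.9 normalised counts (SD, n = 3 mice each), or -1.46 on the log2 scale (standard error 0.0518, adjusted p = 1.2e-09 from edgeR). Jak1 fell from 14552 ± 219 to 11012 ± 66.9 (-0.40, adjusted p = 2.6e-06 from edgeR). Ifnlr1, the specific chain of the interferon-λ receptor, rose from 51.5, 43.3 and 42.7 to 127, 148 and 142 (1.61, adjusted p = 9.4e-06 from edgeR). The type I receptor chains rose slightly, Ifnar2 by 0.30 and Ifnar1 by 0.27 on the log2 scale. Ifngr2 and Il10rb rose as well, by 0.23 and 0.19, while Ifngr1 and Tyk2 did not pass (adjusted p = 0.89 and 0.25 from edgeR). The median log2 fold change of these 9 genes was 0.19 and the median SD within genotypes 0.0561.

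Among 10 sensors, adaptors and kinases that lead to interferon production, 3 were higher and none lower, against 9.79% and 8.13% of all tested genes. Tmem173 (STING), the adaptor for cytosolic DNA, rose from 571, 563 and 494 to 1049, 968 and 954 normalised counts (log2 fold change 0.86, adjusted p = 1.8e-06 from edgeR). Tlr9 rose by 0.60 and Ticam1 by 0.28. Of 7 inhibitors of the pathway, Ptpn6 (SHP-1), a phosphatase that also restrains B-cell receptor signalling, fell from 37838 ± 1023 to 17698 ± 1200 (-1.10, adjusted p = 5.4e-09 from edgeR), and the others, Socs1 among them (-0.08), did not pass, against 8.13% of all tested genes called lower.

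The 5 transcription factors of the pathway that were followed did not pass the test, and 3 of them varied between mice in the order of the interferon-stimulated genes. Several of these factors are known to be induced by interferon themselves. Irf7 had 829, 1342 and 1213 normalised counts in Ahr+/+ mice and 1529, 950 and 604 in Ahr-/- mice. Stat2 and Irf9 shared that order, with 1.31-fold and 1.55-fold ranges within Ahr-/- mice. Irf1 was highest in Ahr-/- replicate 2, and Irf3, the constitutive factor, ranged 1.06-fold. Counts assigned to the interferon genes themselves were near the floor. Of 19 ligand genes in the table, 18 had at most 1 count over the 6 libraries together, and these 18 held 3 counts in all. Ifng, the exception, had 34.0, 35.2 and 28.1 normalised counts against 41.2, 48.3 and 33.7 (log2 fold change 0.35, adjusted p = 0.34 from edgeR), which does not follow the order of the interferon-stimulated genes. RNA taken at 8 h does not show ligand made earlier, and reads shared by related ligand genes could have gone uncounted.

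**Figure D5:**
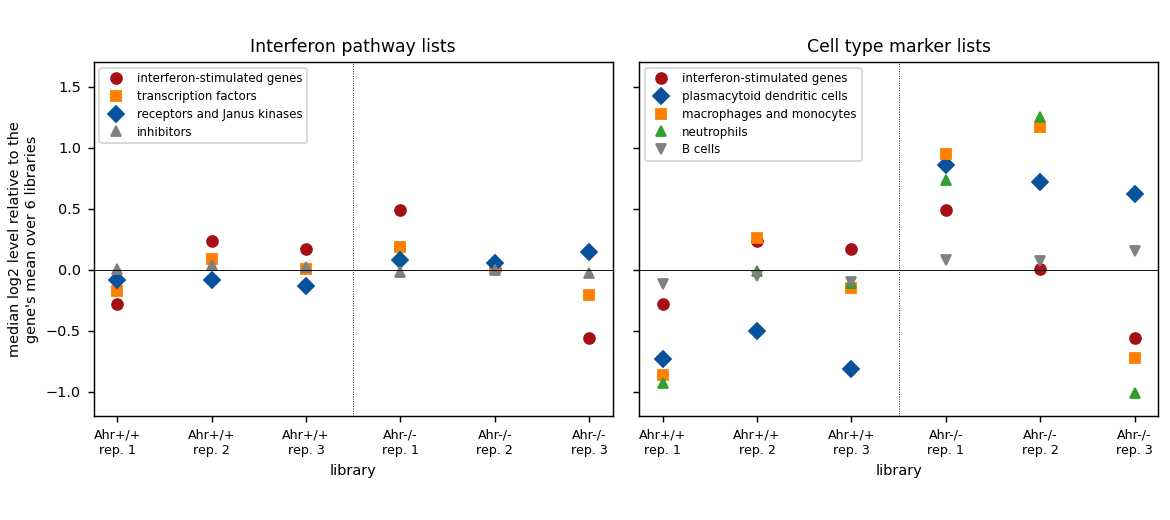
Median log2 level of each gene list in each library relative to each gene's mean over the 6 libraries (vertical axis), for pathway lists on the left and cell type markers on the right. The interferon-stimulated genes run from -0.558 in Ahr-/- replicate 3 to 0.488 in Ahr-/- replicate 1, and the receptors and Janus kinases separate the genotypes.

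The depth and the cell make-up of the libraries were set beside this pattern. Total counts lay between 22095096 and 53648787. Ahr-/- replicate 1, highest for most of the 44 genes, was the shallowest library, while the low libraries Ahr+/+ replicate 1 and Ahr-/- replicate 3 had 40065169 and 41947441 counts. Ahr was lower by 0.52 on the log2 scale in the Ahr-/- libraries without overlap, from a count over the whole gene. Every library was rich in B-cell markers (7 genes, summed to 1970 to 2080 CPM in Ahr+/+ and 2290 to 2390 CPM in Ahr-/- mice, with 4 higher and 1 lower). In bulk samples fewer cells of a type and less RNA per cell cannot be told apart.

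Markers of plasmacytoid dendritic cells, which make much type I interferon, were higher in Ahr-/- libraries for 8 of 8 genes, against 9.79% of all tested genes, with sums of 43.1 to 46.9 CPM and 69.5 to 73.1 CPM. Within genotypes the sums were 43.1, 46.9 and 43.9 CPM in Ahr+/+ replicates 1 to 3 and 73.1, 69.5 and 72.0 CPM in Ahr-/- replicates 1 to 3, and Pacsin1 made up most of them. The median log2 level of the 8 markers, relative to each gene's mean, was 0.857, 0.716 and 0.623 in Ahr-/- replicates 1 to 3, and that of the interferon-stimulated genes 0.488, 0.006 and -0.558. In Ahr+/+ replicates 1 to 3 the markers had -0.736, -0.503 and -0.812, lowest in replicate 3. The interferon-stimulated genes had -0.284, 0.232 and 0.171 there, lowest in replicate 1. Bst2, also a marker of these cells, is counted among the 44. The macrophage and monocyte list (6 genes, 1 higher and 1 lower) summed to 20.2 to 26.5 CPM in Ahr+/+ and 5.69 to 17.9 CPM in Ahr-/- mice, most of it in Ahr+/+ mice from Emr1. Without Emr1, a step chosen after seeing the data, the sums were 3.18, 9.29 and 6.19 CPM in Ahr+/+ mice and 9.86, 16.3 and 4.77 CPM in Ahr-/- mice. The neutrophil list (5 genes, none called) gave 1.62, 2.96 and 2.25 CPM and 4.33, 6.12 and 1.21 CPM, from 51 to 331 counts per library. Both lists were lowest in the same libraries as the interferon-stimulated genes, Ahr+/+ replicate 1 and Ahr-/- replicate 3, but highest in Ahr-/- replicate 2 rather than replicate 1. The NK-cell sums were 3.59, 4.97 and 4.59 CPM in Ahr+/+ mice and 6.38, 7.60 and 5.34 CPM in Ahr-/- mice. They too were lowest in these libraries within each genotype and highest in Ahr-/- replicate 2. Conventional dendritic cell markers (7 genes) had 4 higher and 1 lower, T-cell markers (7 genes) 2 lower and NK-cell markers (5 genes) 2 higher, with sums up to 27.5, 14.2 and 7.60 CPM. Over all tested genes 9.79% were higher and 8.13% lower. The part of depth or of these other cells in the spread of the interferon-stimulated genes was not tested. Nor was their part in the genotype differences of the pathway genes.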

How the data were processed

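Polyadenylated RNA of the 6 cultures was sequenced from stranded libraries. The authors deposited raw counts of reads per gene for each mouse, which were used as deposited; the submitters' processing notes name TopHat2, HTSeq, DESeq and build mm10, and the strand setting of the counting is not given in the sources used here. Normalised counts and a table of the authors' own fold changes and p-values were not used. Columns of the count table were matched to samples by genotype and replicate number, and 27 symbols that look like dates were left as they are.

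Counts were compared with edgeR 4.0.16 (R 4.3.3) by glmQLFit and glmQLFTest after TMM scaling, on genes whose counts summed to at least 10, with Benjamini-Hochberg adjustment over all 13682 of them and a threshold of 0.05. Standard errors were taken from the fold change and its F statistic. Normalised counts are counts divided by the TMM-scaled library size relative to the mean library, and log2 levels carry a pseudocount of 0.5. Libraries held 22095096 to 53648787 counts, so that 3 counts correspond to 0.0555 to 0.134 CPM. Counts within a genotype differed by more than sampling noise, and no library was treated as a duplicate. Gene positions and exon lengths came from GENCODE M21 (GRCm38), which matched all 44 symbols, and promoters from RefSeq (GRCm38.p6). The code was tested on simulated data.

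The 44 genes, the other gene lists, the markers and the motifs were chosen with earlier results of these data known. Each of the 44 is named, while pathway and marker genes are counted by list with a few named, and 1 pathway gene was left out of its list and is not reported here. Values per library are given for those past the threshold, for the most abundant other gene of each functional group, and for further genes chosen after their values were seen. Alternatives were DESeq2 size factors, DESeq2 1.42.0, both other count filters, a threshold of 0.01, a replicate block, leaving out each library, and leaving out members within 20 Mb of Ahr. Each mouse is 1 library, so p-values set the genotype difference against variation between mice. The edgeR fit estimates this variation partly from other genes.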

Additional observations from a re-analysis of the deposited data

How the results depend on the processing

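Gbp3 stayed past the threshold in every alternative tried, and at an adjusted p under 0.01 with all 6 libraries. Samhd1 did not pass by DESeq2 (log2 fold change 0.303) or in 4 of the 6 fits without 1 library. The number of interferon-stimulated genes called was 2 with the other scaling (17.9% of all genes tested in that fit) and with the stricter count filter (20.1%), 3 with no filter beyond 1 count (16.3%; Irgm2 lower in addition, at -0.308), 1 by the DESeq2 Wald test (16.0%) and 1 at an adjusted p under 0.01. At that threshold 1473 genes were called over the whole table. With each library left out the number of interferon-stimulated genes called ran from 1 to 6, of all genes from 1664 to 2601, of pathway genes from 11 to 13 and of cell type markers from 19 to 32, and the median log2 fold change of the interferon-stimulated genes from -0.309 to 0.158.

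The sign of 27 of the 44 log2 fold changes depended on which library was left out, in 51 values in all. The ranges over these fits were, as log2 fold changes, Isg15 -0.346 to 0.307, Ifit1 -0.454 to 0.315, Ifit2 -0.262 to 0.602, Ifit3 -0.867 to 0.351, Mx1 -0.318 to 0.475, Mx2 -0.414 to 0.075, Oas1a -0.304 to 0.228, Oas2 -0.311 to 0.34, Oasl1 -0.404 to 0.127, Oasl2 -0.087 to 0.621, Cmpk2 -0.359 to 0.201, Dhx58 -0.308 to 0.141, Zbp1 -0.321 to 0.241, Rtp4 -0.651 to 0.007, Trim30a -0.405 to 0.078, Trim25 -0.135 to 0.047, Ifi35 -0.21 to 0.073, Ifi47 -0.265 to 0.136, Gbp7 -0.568 to 0.094, Tap1 -0.066 to 0.07, Eif2ak2 -0.318 to 0.135, Herc6 -0.281 to 0.2, Xaf1 -0.462 to 0.055, Ifi203 -0.149 to 0.175, Slfn2 -0.038 to 0.096, Slfn8 -0.133 to 0.343 and Lgals3bp -0.195 to 0.292. By DESeq2, 4 values near 0 turned positive: Isg15 0.025, Ifit3 0.041, Cmpk2 0.003 and Herc6 0.026. All other alternatives kept the sign of each gene.

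The labels number the mice 1 to 3 in each genotype without saying that a number marks a shared litter or day. Deviations from the genotype means did not run together by number (r = -0.153, 0.264 and -0.183 across 9962 genes, which are not independent). With 3 mice per genotype these values cannot decide whether a number marks a shared litter or day. The largest r between mice of different genotypes was 0.385, for Ahr+/+ replicate 1 and Ahr-/- replicate 3, both low for most interferon-stimulated genes. With a replicate block 2303 genes, and the same 2 interferon-stimulated genes, were called. A level of 3 counts corresponds to 0.134 CPM in the shallowest library.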
